A study of Pogona vitticeps with 24 samples.

Results

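The 8 genes described here carry the signal of the ectodysplasin ligand into the cell and restrain it: the ligand EDA, its adaptor EDARADD, the signal transducers TRAF3 and TAB1, the inhibitors CYLD, NFKBIA and TNFAIP3, and the NF-kappaB subunit NFKB2. They were picked by name, with earlier results of these data known, from the 11126 genes of the deposited expression table of the bearded dragon (Pogona vitticeps). This lizard has acrodont teeth (fused to the crest of the jaw) at the back of the jaw and pleurodont teeth (attached to its inner side) at the front. RNA came from hatchlings, from epithelium of the successional dental lamina and from the mesenchyme around it, each collected by laser capture microdissection at the posterior (acrodont) and the anterior (pleurodont) position. The groups were posterior and anterior epithelium and posterior and anterior mesenchyme of Sca/+ hatchlings, which carry 1 mutated copy of EDA and are called Scaleless in the labels, and the same 4 tissues of wild-type (WT) hatchlings, with 3 samples in each of the 8 groups. By the methods of the study the 4 tissues of a genotype came from the same 3 animals. By the same methods, the teeth of each Sca/+ animal were judged only roughly by eye ahead of sectioning, and all 3 appeared to have the abnormal front of the lower jaw seen in this mutant. The EDA level is given as measured and is not used as a check of the genotype labels.

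EDA is a ligand of the tumor necrosis factor family that epithelia of teeth, hair, scales and feathers use during their formation. It binds the receptor EDAR, which recruits EDARADD, and this adaptor gathers TRAF proteins and the TAB and TAK1 kinase complex, through which the IkappaB kinases are switched on and NF-kappaB enters the nucleus. NF-kappaB then induces its own inhibitors, among them NFKBIA and TNFAIP3, so that their transcripts are commonly read as a sign of recent NF-kappaB activity in mammalian cells. In humans and mice, loss of EDA, EDAR or EDARADD leaves teeth missing or misshapen, along with defects of hair and glands.

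The table holds 1 value per gene and group, in log2 CPM (counts scaled to library size), which the authors call a mean, and no value of a single animal. Whether a column stands for 1 library or for the pooled reads of 3 could not be told from the values, so a group value below may rest on fewer than 3 animals. No SD, no test and no p-value could therefore be given for any gene, and every difference below describes these group values. All values of a column are whole multiples of a smallest step of 0.311 to 1.30 CPM, within 0.0065 CPM, and each step was taken as 1 count, with 789353 to 3264515 steps in a column. Sca/+ anterior mesenchyme had the fewest steps and Sca/+ posterior epithelium the most. The intervals given are exact 95% intervals of these counts (Clopper-Pearson for a difference, Poisson for a level), and they cover counting error only, not the spread between animals or of amplification. A gene was called higher or lower where 2 groups differed by at least 1 log2 unit, a 2-fold difference. The WT posterior epithelium column was not used, because 11121 of its 11126 values form an artificial series, each 1e-09 above the one before, and Sca/+ posterior epithelium thus has no WT counterpart. The 9987 genes whose log2 CPM averaged 3 or more in the 7 columns used were kept, all 8 members among them. All members but NFKBIA and NFKB2 averaged under 5 log2 CPM, and genes of low level were called more often. Between genotypes in anterior epithelium 22.2% of the genes kept were called, against 14.8% of those averaging 5 log2 CPM or more. The shares of all genes given below are therefore not matched to the level of a member, and no matched share was computed. Epithelial markers (20 kept) were called higher in epithelium than in mesenchyme for 12 genes at the Sca/+ posterior, 10 at the Sca/+ anterior and 14 at the WT anterior position, and lower for 1 (KRT18), 0 and 0. Of 27 mesenchymal markers 26, 25 and 25 were lower in epithelium and 0 higher.

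EDA had 10.9 CPM in Sca/+ posterior epithelium, 18.6 CPM in Sca/+ anterior epithelium and 22.7 CPM in WT anterior epithelium. In mesenchyme it had 6.23 CPM in Sca/+ posterior, 11.1 CPM in WT posterior, 16.9 CPM in Sca/+ anterior and 5.05 CPM in WT anterior tissue. The ligand was thus lowest in the anterior mesenchyme of WT animals and highest in the epithelium beside it, a 4.49-fold range that rests on 7 to 38 steps per group. No 2 neighbours in this order of 7 levels differed beyond counting error. Between genotypes EDA differed by -0.29 log2 units in anterior epithelium (interval -1.01 to 0.44), by 1.74 in anterior mesenchyme (0.31 to 3.31) and by -0.84 in posterior mesenchyme (-2.16 to 0.47), each as Sca/+ minus WT. It was therefore called higher in the Sca/+ anterior mesenchyme, with 13 steps in Sca/+ against 7 steps in WT, and in no other genotype comparison. Beside this difference, the summed level of 21 epithelial markers was 8751 CPM in Sca/+ anterior mesenchyme and 5539 CPM in WT anterior mesenchyme. Of the 20 epithelial markers kept, 3 were called higher and 1 lower, against 11.5% and 8.37% of all genes kept. Mesenchymal markers had a higher sum in Sca/+ as well, 139370 CPM against 63267 CPM in WT. In posterior mesenchyme, where EDA differed by -0.84, the same epithelial markers summed to 6863 CPM in Sca/+ and 4370 CPM in WT. There 6 of the 20 kept were called higher and 0 lower, against 8.82% and 8.13% of all genes kept. The part of captured epithelium in the EDA value was not tested. In these bulk samples a smaller share of a cell type and less RNA per cell cannot be told apart.

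EDARADD, the adaptor that links the receptor to the TRAF proteins, had 18.7 CPM in Sca/+ posterior epithelium, 31.3 CPM in Sca/+ anterior epithelium and 16.3 CPM in WT anterior epithelium. The mesenchyme columns held 2.83 CPM (Sca/+ posterior), 5.56 CPM (WT posterior), 9.11 CPM (Sca/+ anterior) and 14.4 CPM (WT anterior). All 3 epithelial values lay above all 4 mesenchymal values, as they did for 9.93% of the genes kept, and the range of 11.0-fold was larger than that of 93.9% of the genes kept. In that order only the 2 highest neighbours, Sca/+ anterior and Sca/+ posterior epithelium, differed beyond counting error, by 0.74 log2 units (0.21 to 1.28). The adaptor was 0.94 log2 units higher in Sca/+ than in WT anterior epithelium (0.23 to 1.69), just under the size taken as a call. It differed by -0.66 (-2.15 to 0.64) in anterior and by -0.97 (-3.02 to 1.00) in posterior mesenchyme, where both intervals, from 5 to 20 steps per group, include 0.

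**Figure D1:**
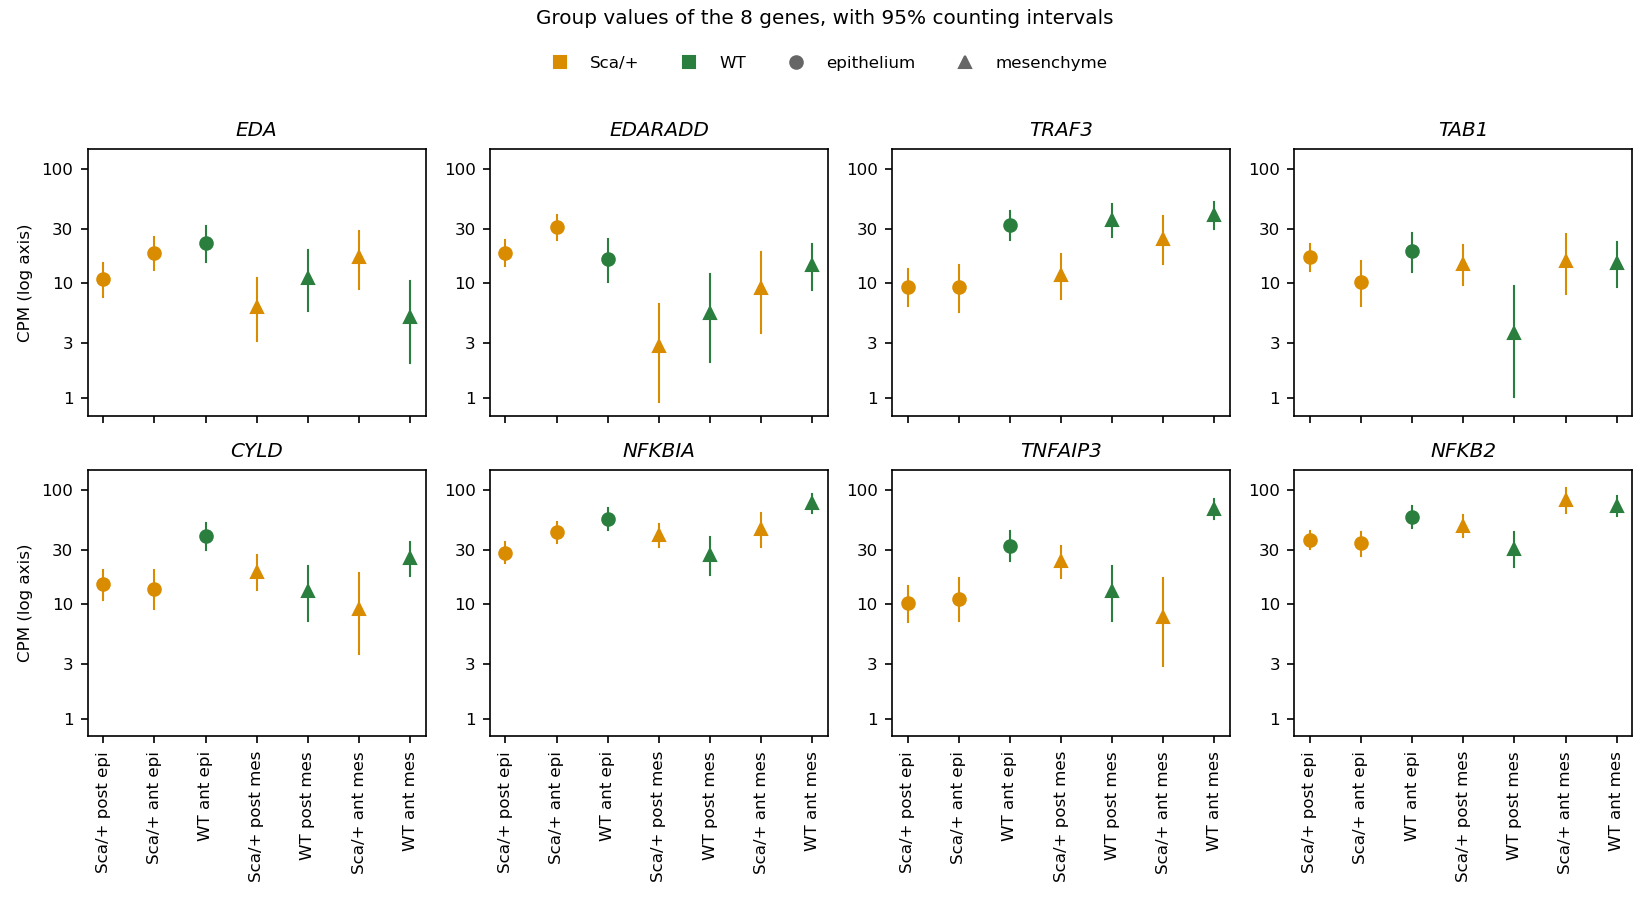
The plot shows the level of each of the 8 genes in CPM (log axis) in the 7 usable groups, with points for the group value, bars for the 95% counting interval, orange for Sca/+ and green for WT. TRAF3 sits at 9.28 to 24.7 CPM in the 4 Sca/+ groups and at 32.6 to 39.7 CPM in the 3 WT groups, and EDARADD is higher in each of the 3 epithelial groups than in the 4 mesenchymal groups.

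TRAF3, which binds receptors of this family and, in mammals, holds back the alternative NF-kappaB route by directing the kinase MAP3K14 to degradation, had 9.33 CPM in Sca/+ posterior epithelium, 9.28 CPM in Sca/+ anterior epithelium and 32.6 CPM in WT anterior epithelium. In mesenchyme the values were 11.9 CPM in Sca/+ posterior, 36.2 CPM in WT posterior, 24.7 CPM in Sca/+ anterior and 39.7 CPM in WT anterior tissue. The 4 Sca/+ values all lay below the 3 WT values, which holds for no other member and for 5.1% of all genes kept. TRAF3 was lower in Sca/+ by 1.81 log2 units in anterior epithelium (difference -1.81, interval -2.67 to -1.01) and by 1.60 in posterior mesenchyme (difference -1.60, interval -2.44 to -0.80). In anterior mesenchyme the difference was -0.68 (-1.52 to 0.09), which was not called. Among the 9987 genes, 2.10% had a difference as low in anterior epithelium and 2.51% in posterior mesenchyme. The gap between the highest Sca/+ and the lowest WT value was 0.40 log2 units (-0.40 to 1.25), so the separation of the genotypes is within counting error at its narrowest point. TRAF3 overlaps an annotated pseudogene and a long noncoding RNA in the RefSeq annotation PviZW2.1, and EDA a long noncoding RNA. None of these is in the table, and whether the counting used strand is not stated. The paper cites a published genome of the species for alignment and names no build, so PviZW2.1 is not shown to be the build or annotation counted with. The overlaps, and the absence of these entries from the table, therefore do not tell how these reads were counted.

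TAB1, the activating partner of the kinase TAK1 (MAP3K7), had 17.1 CPM in Sca/+ posterior epithelium, 10.3 CPM in Sca/+ anterior epithelium and 19.1 CPM in WT anterior epithelium. Mesenchyme of Sca/+ posterior, Sca/+ anterior and WT anterior tissue lay close together at 14.7, 15.6 and 15.2 CPM, while WT posterior mesenchyme held 3.71 CPM. That low value stands on 4 steps, and every call of TAB1 rests on it. TAB1 was called higher in Sca/+ than in WT posterior mesenchyme, by 1.99 log2 units (0.46 to 3.97), the member's difference being as high in 0.901% of all genes kept. It differed by 0.04 (-1.11 to 1.13) between the genotypes in anterior mesenchyme and by -0.90 (-1.80 to -0.02) in anterior epithelium, and neither was called. No 2 neighbours in its order of levels differed beyond counting error.

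NFKBIA, the inhibitor IkappaB-alpha that holds NF-kappaB in the cytoplasm and is itself an NF-kappaB target, had 28.3 CPM in Sca/+ posterior epithelium, 42.5 CPM in Sca/+ anterior epithelium and 56.0 CPM in WT anterior epithelium. Its mesenchymal levels were 40.2 CPM (Sca/+ posterior), 26.9 CPM (WT posterior), 45.5 CPM (Sca/+ anterior) and 76.5 CPM (WT anterior). With 29 to 106 steps per group and a range of 2.85-fold, NFKBIA had the second smallest range of the 8 genes and was called in no genotype comparison. Its Sca/+ minus WT differences were -0.40 in anterior epithelium (-0.85 to 0.06), -0.75 in anterior mesenchyme (-1.34 to -0.19) and 0.58 in posterior mesenchyme (-0.06 to 1.26). In the order of levels, 2 of the 6 neighbouring pairs were apart beyond counting error, WT anterior mesenchyme above WT anterior epithelium and Sca/+ posterior mesenchyme above Sca/+ posterior epithelium.

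TNFAIP3, a ubiquitin-editing enzyme that NF-kappaB induces and that shuts the signal off, had 10.3 CPM in Sca/+ posterior epithelium, 11.2 CPM in Sca/+ anterior epithelium and 32.6 CPM in WT anterior epithelium. In mesenchyme it had 23.8 CPM in Sca/+ posterior and 13.0 CPM in WT posterior tissue, but 7.81 CPM in Sca/+ anterior against 68.6 CPM in WT anterior tissue. The lowest and the highest of its 7 values were thus the anterior mesenchyme of the 2 genotypes, 8.78-fold apart. TNFAIP3 was 3.13 log2 units lower in Sca/+ anterior mesenchyme (difference -3.13, interval -4.62 to -1.96), from 6 steps in Sca/+ against 95 steps in WT, and 0.270% of all genes kept had a difference as low there. In anterior epithelium it was lower by 1.54 log2 units (difference -1.54, interval -2.33 to -0.78). In posterior mesenchyme the difference was 0.87 (-0.03 to 1.86), below the size of a call and with an interval that includes 0. Its 2 highest groups, WT anterior mesenchyme and WT anterior epithelium, were the only neighbours in the order apart beyond counting error.

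CYLD, a deubiquitinase that takes apart the ubiquitin chains on which the kinase complexes assemble, had 14.9 CPM in Sca/+ posterior epithelium, 13.7 CPM in Sca/+ anterior epithelium and 39.7 CPM in WT anterior epithelium. In mesenchyme the values were 19.3 CPM in Sca/+ posterior, 13.0 CPM in WT posterior, 9.11 CPM in Sca/+ anterior and 25.3 CPM in WT anterior tissue. At the anterior position CYLD was called lower in Sca/+ in both compartments, by 1.54 log2 units in epithelium (difference -1.54, interval -2.25 to -0.86) and by 1.47 in mesenchyme (difference -1.47, interval -2.89 to -0.28). The posterior mesenchyme differed by 0.57 (-0.37 to 1.58). In the order of levels only WT anterior epithelium and WT anterior mesenchyme, the 2 highest groups, were neighbours apart beyond counting error, by 0.65 log2 units (0.02 to 1.30).

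NFKB2, the precursor from which the alternative NF-kappaB subunit is cut, had 36.7 CPM in Sca/+ posterior epithelium, 34.2 CPM in Sca/+ anterior epithelium and 58.1 CPM in WT anterior epithelium. Mesenchymal levels were 48.7 CPM (Sca/+ posterior), 30.6 CPM (WT posterior), 82.0 CPM (Sca/+ anterior) and 72.9 CPM (WT anterior). It had the smallest range of the 8 genes, 2.68-fold, on 33 to 118 steps, and passed the call in no genotype comparison. Its Sca/+ minus WT differences were -0.77 in anterior epithelium (-1.25 to -0.29), 0.17 in anterior mesenchyme (-0.31 to 0.64) and 0.67 in posterior mesenchyme (0.08 to 1.30). Neighbours in its order of levels did not differ beyond counting error, while 13 of the 21 pairs of groups did.

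Set side by side, the genotype comparison that moved the most members in 1 direction was that of anterior epithelium. There 7 of the 8 differences were below 0, EDARADD alone being above, and 3 members (TRAF3, CYLD and TNFAIP3) were called lower and none higher. Among all genes kept, 10% were called lower and 12.2% higher in this comparison, and 49.7% had a difference below 0. The median of the 8 members was -0.83 log2 units, and that of all genes 0.00. With columns rescaled to equal sums the split of all calls was 41.6% higher in place of 54.9%, and TAB1 was called lower too. Endothelial markers moved with this comparison, with 4 of 8 lower and 0 higher and a sum of 37.1 CPM in Sca/+ against 115 CPM in WT, and so did mesenchymal markers, with 6 of 27 lower and 0 higher, and their part in the member differences was not tested.

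In anterior mesenchyme EDA was called higher and CYLD and TNFAIP3 lower, with a member median of -0.67 against 0.04 over all genes. Of all genes kept 11.5% were called higher and 8.37% lower, and the share of calls that were higher changed to 35.1% from rescaled columns, against 57.9% as deposited. The 3 member calls held under that scaling. Mesenchymal markers were higher for 9 of 27 and lower for 1 in this comparison, and their sum was 139370 CPM in Sca/+ against 63267 CPM in WT. In posterior mesenchyme only TAB1 was called higher and only TRAF3 lower, against 8.82% and 8.13% of all genes, and the member median was 0.58 against 0.00. Of the 8 differences 5 were above 0 there, and among the 4 genes CYLD, NFKBIA, TNFAIP3 and NFKB2 all were, at 0.57 to 0.87. Each of these 4 was below the size of a call, and for NFKB2 alone the interval lay above 0. Mesenchymal markers were lower for 4 of 27 and higher for 1 in posterior mesenchyme. Their sum was 91086 CPM in Sca/+ against 171886 CPM in WT, and their part in these differences was not tested. Taking the smaller size of 0.58 log2 units, 6 members were called in anterior epithelium, 6 in anterior and 7 in posterior mesenchyme, where 46.2%, 43.3% and 38.5% of all genes were.

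**Figure D2:**
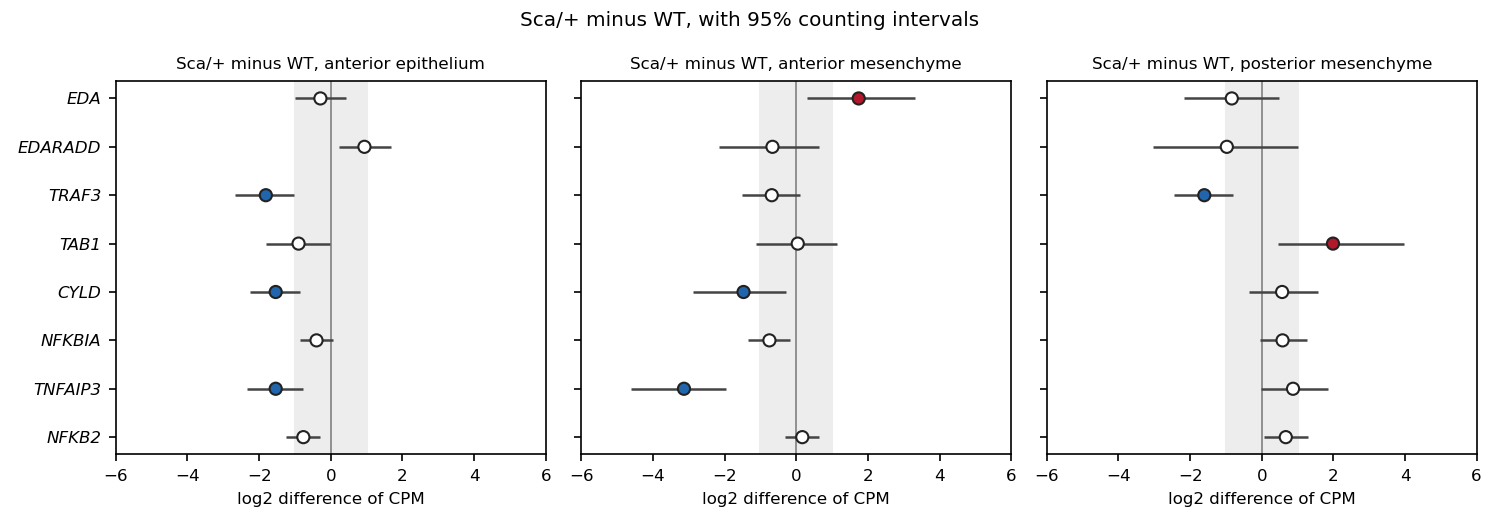
The plot gives the log2 difference of CPM, Sca/+ minus WT, for the 8 genes in the 3 tissues of both genotypes, with bars for the 95% counting interval, blue for genes called lower, red for genes called higher, and the grey band for differences under 1 log2 unit. TNFAIP3 stands at -1.54, -3.13 and 0.87, and TRAF3 at -1.81, -0.68 and -1.60.

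Because the genotype differences of several members had opposite signs at the 2 positions, the difference between them was computed, anterior minus posterior mesenchyme. For TNFAIP3 it was -4.01 log2 units (interval -5.48 to -2.53), for CYLD -2.04 (-3.52 to -0.57), for TAB1 -1.95 (-3.78 to -0.12), for NFKBIA -1.33 (-2.16 to -0.50) and for EDA 2.58 (0.80 to 4.35). For TRAF3 (0.92, -0.15 to 1.99), NFKB2 (-0.50, -1.24 to 0.23) and EDARADD (0.31, -1.80 to 2.43) the interval included 0. Counting error alone thus did not span the contrast of the positions for 5 members, while the spread between animals is unknown for all 8. The contrast of TAB1 rests on 4 steps in WT posterior mesenchyme. How many of all genes have such a contrast was not computed, so the count of 5 has no background beside it. In the single genotype comparisons the interval excluded 0 for 36.9% of all genes in anterior and 38.9% in posterior mesenchyme. Between the compartments of the anterior position, epithelium minus mesenchyme, the genotype difference of TRAF3 differed by -1.13 (-2.21 to -0.05) and that of TNFAIP3 by 1.60 (0.20 to 2.99), both being below 0 on either side. CYLD differed by -0.07 (-1.41 to 1.28), with a lower level in Sca/+ on both sides.

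Between positions in Sca/+ mesenchyme 5 of the 8 members were called, 2 higher and 3 lower in posterior tissue. EDA was 1.44 log2 units lower in posterior tissue (difference -1.44, interval -2.74 to -0.17), EDARADD 1.69 lower (difference -1.69, interval -3.68 to 0.19) and TRAF3 1.05 lower (difference -1.05, interval -2.02 to -0.08). TNFAIP3 was 1.61 higher (0.37 to 3.13) and CYLD 1.08 higher (-0.12 to 2.50). Of all genes kept 8.34% were called higher and 10.4% lower, against 2 and 3 of the 8 members, and the member median was -0.46. NFKB2 (-0.75, -1.24 to -0.26), NFKBIA (-0.18, -0.78 to 0.45) and TAB1 (-0.08, -1.12 to 1.04) were not called. The calls of TRAF3 and CYLD were lost with 2 CPM added to each value. In Sca/+ epithelium no member was called, with differences from -0.77 for EDA to 0.74 for TAB1, while 7.02% of all genes were higher and 6.68% lower. There the counting interval of EDA (-1.47 to -0.07), EDARADD (-1.28 to -0.21) and NFKBIA (-0.59, -1.03 to -0.15) lay below 0. TNFAIP3 stood at -0.13, TRAF3 at 0.01, NFKB2 at 0.10 and CYLD at 0.13, each with an interval that includes 0.

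In WT mesenchyme 6 of the 8 members were called between positions, 5 lower and 1 higher in posterior tissue, where 7.97% of all genes were lower and 9.15% higher. TNFAIP3 was 2.40 log2 units lower (difference -2.40, interval -3.33 to -1.58), TAB1 2.03 lower (difference -2.03, interval -4.03 to -0.46) and NFKBIA 1.51 lower (difference -1.51, interval -2.15 to -0.90). EDARADD (-1.38, -2.98 to -0.01) and NFKB2 (-1.25, -1.87 to -0.67) were lower too, CYLD stood at -0.96 (-1.97 to -0.03) and TRAF3 at -0.14 (-0.77 to 0.48). EDA was higher in posterior tissue by 1.14, with an interval of -0.32 to 2.72 from 12 posterior and 7 anterior steps. EDA, EDARADD and TNFAIP3 were thus called in both genotypes, EDARADD in the same direction and EDA and TNFAIP3 in opposite directions, and the difference between the genotypes in position is the quantity given above for the genotype differences, with its sign turned. The member median was -1.31, against 0.04 for all genes. The tissue makeup of the WT columns differed as well: mesenchymal markers summed to 171886 CPM in posterior and 63267 CPM in anterior tissue (11 of 27 higher, 0 lower), bone and dentin markers to 16130 CPM and 6360.0 CPM (4 of 6 higher, 0 lower), and 4 of 5 leukocyte markers were lower. Epithelial markers summed to 4370 CPM and 5539 CPM (5 of 20 lower, 1 higher), and immediate early genes to 1288.5 CPM and 2291 CPM (7 of 14 lower, 0 higher). Their part in the member differences was not tested. Rescaled columns took 0.26 from all differences of this comparison, changed the share of all calls that were higher to 28.7% in place of 53.5%, ended the call of EDA and added that of CYLD. The genotype and position comparisons share the mesenchyme columns, so their values are not independent of each other.

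Between compartments the ligand and its adaptor were the only members called higher in epithelium. EDA, as epithelium minus mesenchyme, differed by 0.81 (-0.21 to 1.93) at the Sca/+ posterior and by 0.13 (-0.81 to 1.17) at the Sca/+ anterior position, and was called at the WT anterior position, at 2.17 log2 units (0.96 to 3.59). For EDARADD the WT anterior position had the smallest of the 3 differences, with calls of 2.72 (1.42 to 4.39) at the Sca/+ posterior and 1.78 (0.65 to 3.15) at the Sca/+ anterior position, and 0.17 (-0.75 to 1.12) at the WT anterior position. TNFAIP3 was lower in epithelium by 1.21 in Sca/+ posterior tissue (difference -1.21, interval -1.92 to -0.52) and by 1.07 in WT anterior tissue (difference -1.07, interval -1.61 to -0.55). At the Sca/+ anterior position TNFAIP3 stood at 0.52 (-0.81 to 2.11), which was not called. TRAF3 (-1.41, -2.41 to -0.42) and NFKB2 (-1.26, -1.77 to -0.75) were called lower in epithelium at the Sca/+ anterior position. At the Sca/+ posterior and WT anterior positions TRAF3 differed by -0.35 and -0.28 and NFKB2 by -0.41 and -0.33, with intervals that include 0. TAB1, CYLD and NFKBIA were called in no compartment comparison, with differences from -0.61 for TAB1 to 0.65 for CYLD. In Sca/+ posterior tissue 12.1% of all genes were called higher and 13.7% lower, in Sca/+ anterior tissue 11.5% and 14.3%, and in WT anterior tissue 8.66% and 12.7%, against 1 member higher in each and 1, 2 and 1 lower.

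**Figure D3:**
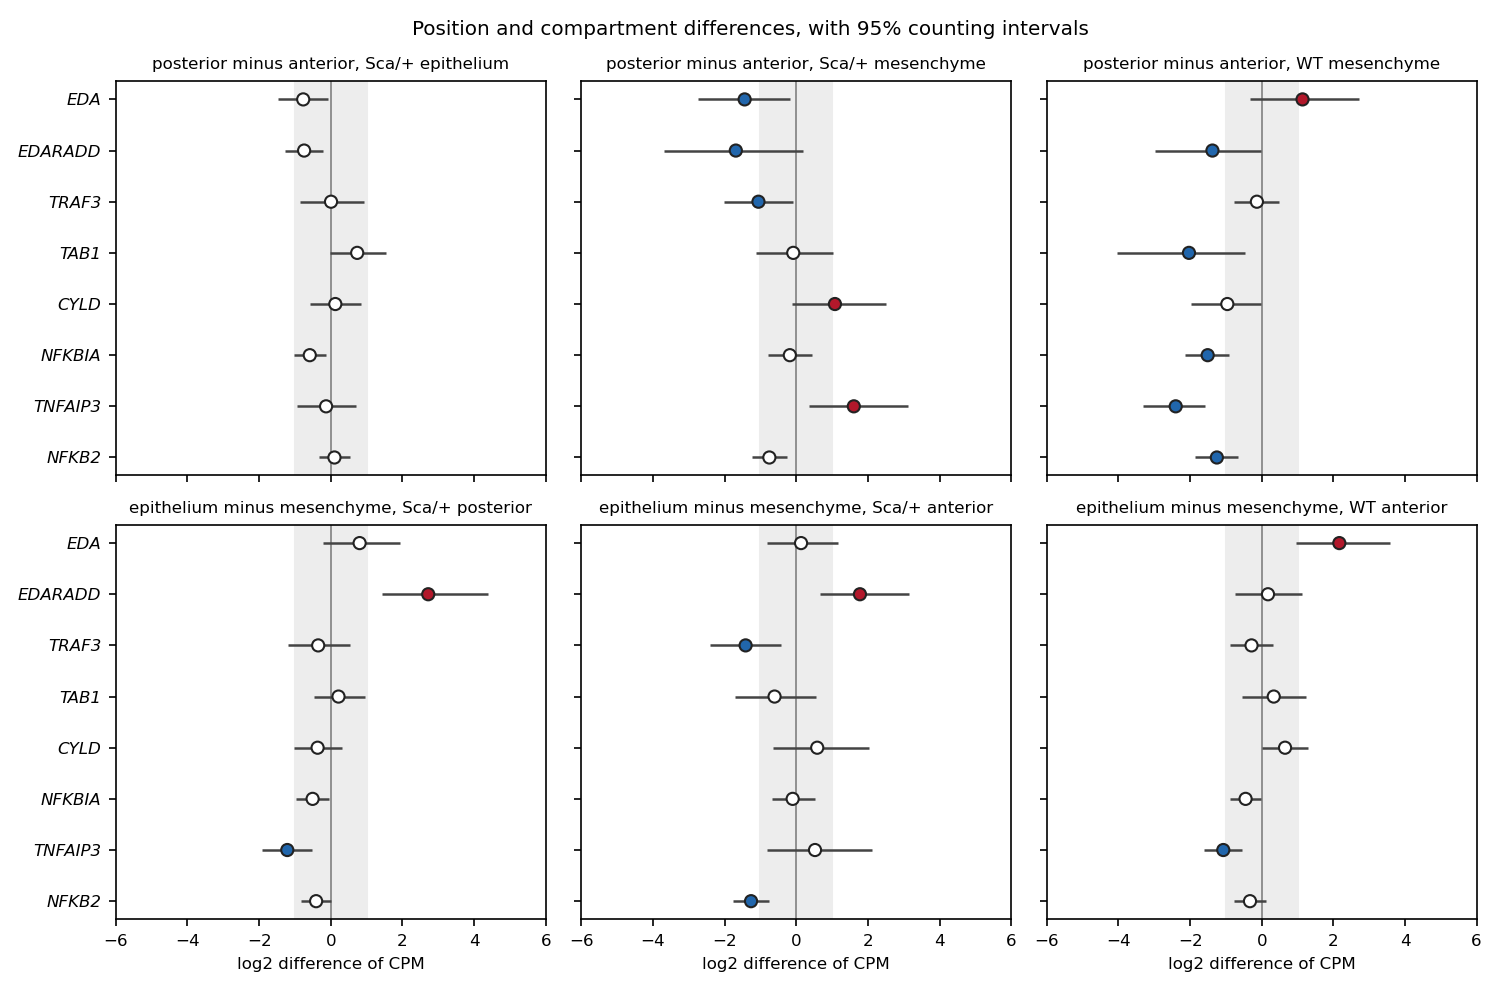
The plot shows, for the 8 genes, the log2 difference of CPM between posterior and anterior tissue (upper row) and between epithelium and mesenchyme (lower row), with 95% counting intervals and the colors used for the genotype differences. In WT mesenchyme 7 of the 8 points lie below 0, and EDARADD stands at 2.72, 1.78 and 0.17 in the compartment contrasts of Sca/+ posterior, Sca/+ anterior and WT anterior tissue.

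The wider pathway was read from a list of 35 genes, the 8 members included, of which 25 are in the table and 24 were kept. EDAR, the receptor itself, and EDA2R, FURIN, TRAF1, TRAF2, BIRC3, REL, NFKBIE, TNIP2 and USP18 were not analysed here. Of the 16 other genes kept, none was called higher and TRAF5 alone lower in Sca/+ anterior epithelium, 0 were higher and 3 lower (TRAF5, BIRC2 and TNIP1) in anterior mesenchyme, and OTULIN was higher and BIRC2 lower in posterior mesenchyme. Their median differences were -0.19, -0.03 and -0.22. Beside these counts of 16 genes stand the 10%, 8.37% and 8.13% of all genes called lower and the 12.2%, 11.5% and 8.82% called higher, so that 1 gene of 16 is no more than the background. TRAF5, a further TRAF adaptor of tumor necrosis factor receptors, had 9.28 CPM in Sca/+ against 45.3 CPM in WT anterior epithelium, a difference of -2.29 (-3.11 to -1.53), and 5.20 CPM in Sca/+ against 20.9 CPM in WT anterior mesenchyme, a difference of -2.01 (-3.98 to -0.50). BIRC2, a ubiquitin ligase that works with the TRAF proteins, was lower in Sca/+ by 1.07 in anterior mesenchyme (difference -1.07, interval -1.51 to -0.65) and by 1.02 in posterior mesenchyme (difference -1.02, interval -1.47 to -0.58), and stood at -0.91 in anterior epithelium.

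TNIP1, a partner of TNFAIP3, had 189 CPM in Sca/+ against 555 CPM in WT anterior mesenchyme, a difference of -1.56 (-1.82 to -1.30). It was also lower in posterior than in anterior WT mesenchyme, at 178 CPM against 555 CPM, so that its highest group was the same as that of TNFAIP3. Of the kinase core, CHUK, IKBKB, IKBKG, MAP3K7 and MAP3K14 lay between -0.88 and 0.72 in all 3 genotype comparisons and none was called. IKBKB stood at 0.57 (0.05 to 1.11) in anterior epithelium and -0.88 (-1.48 to -0.29) in posterior mesenchyme, and CHUK at -0.68 (-1.08 to -0.27) and 0.54 (0.11 to 0.99). Of the subunits, RELA and NFKB1 were called in no genotype comparison, while NFKB1 was lower in posterior than in anterior tissue of WT mesenchyme (-1.44), Sca/+ mesenchyme (-1.82) and Sca/+ epithelium (-1.23). RELB, the partner of the NFKB2 product, fell under the filter and was chosen after its values were seen. It had 3.90 CPM (3 steps) in Sca/+ against 18.0 CPM in WT anterior mesenchyme, a difference of -2.21 (-4.58 to -0.50), and 1.13 CPM (2 steps) in Sca/+ against 9.27 CPM in WT posterior mesenchyme, a difference of -3.04 (-6.26 to -0.80). In anterior epithelium it had 11.2 CPM in Sca/+ against 7.79 CPM in WT, a difference of 0.53 (-0.57 to 1.71).

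**Figure D4:**
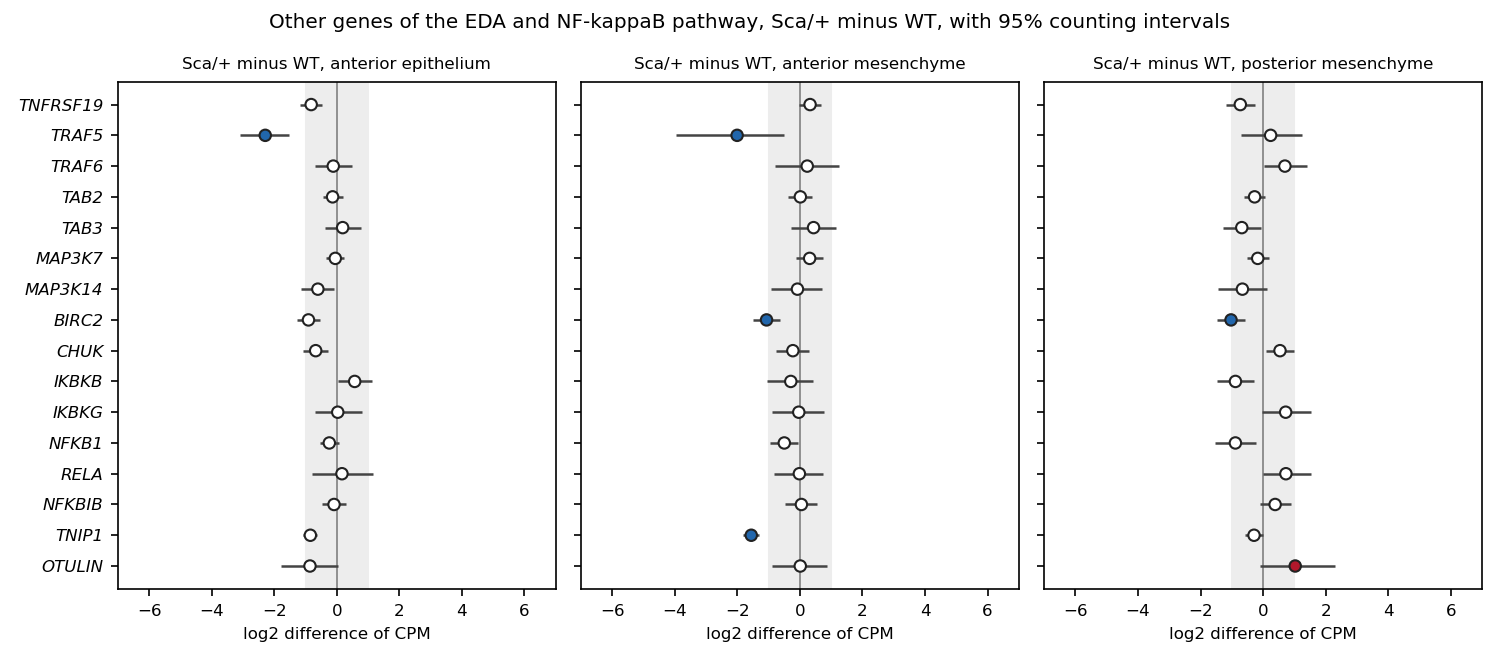
The plot gives the Sca/+ minus WT log2 difference of CPM for the 16 other pathway genes kept, in the 3 tissues of both genotypes, with 95% counting intervals, blue and red points for genes called lower and higher, and the grey band for differences under 1 log2 unit. TRAF5 lies at -2.29 and -2.01 in the 2 anterior comparisons and at 0.24 in posterior mesenchyme, and BIRC2 at -0.91, -1.07 and -1.02.

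NF-kappaB target genes other than the members were read from a second list, with 19 of 37 genes in the table and 16 kept, TNIP1 and NFKB1 being on both lists. In Sca/+ against WT, 3 were lower in anterior epithelium, 5 in anterior mesenchyme and 5 in posterior mesenchyme, and 0 were higher in each. Their median differences were -0.19, -0.67 and -0.44, against 0.00, 0.04 and 0.00 for all genes. Of all genes kept, 10%, 8.37% and 8.13% were called lower in these comparisons and 12.2%, 11.5% and 8.82% higher. NFKBIZ, an inducible nuclear IkappaB protein, was lower in both anterior tissues, with 130 CPM in Sca/+ against 431 CPM in WT epithelium (-1.72, -1.94 to -1.51) and 98.9 CPM in Sca/+ against 321 CPM in WT mesenchyme (-1.70, -2.07 to -1.35). PLAU, the urokinase protease, had 2.60 CPM (2 steps) in Sca/+ against 59.2 CPM in WT anterior mesenchyme, a difference of -4.51 (-7.58 to -2.61), with -1.21 (-2.10 to -0.36) in anterior epithelium and 0.81 (-0.03 to 1.73) in posterior mesenchyme. BCL3, another nuclear IkappaB protein, was lower in anterior (-2.10, -3.48 to -0.96) and posterior mesenchyme (-1.30, -2.38 to -0.25), and stood at -0.05 in anterior epithelium. The protease MMP9 was lower in posterior mesenchyme (-3.61, -4.39 to -2.92) but stood at -0.61 (-1.03 to -0.20) in anterior mesenchyme and 0.90 (0.33 to 1.51) in anterior epithelium. In posterior mesenchyme the lower targets (BCL3, IRF1, CSF1, MMP9 and GADD45B) thus stood beside NFKBIA and TNFAIP3 values above 0. In posterior against anterior tissue 6 targets were lower and 1 higher in Sca/+ epithelium, 7 lower and 2 higher in Sca/+ mesenchyme, and 7 lower and 0 higher in WT mesenchyme. Of all genes kept, 6.68%, 10.4% and 7.97% were lower in these position comparisons and 7.02%, 8.34% and 9.15% higher. Of 20 genes listed as targets of EDA signaling in mouse ectodermal organs 6 are in the table. In Sca/+ 2 were lower in anterior epithelium, 0 in anterior and 1 in posterior mesenchyme, and 0 were higher. Their median differences were -0.23, 0.18 and -0.13. PTHLH, a secreted hormone-like factor, was lower in anterior epithelium (-1.95, -2.52 to -1.41) and posterior mesenchyme (-1.25, -2.50 to -0.05). SOSTDC1, an extracellular inhibitor of BMP and WNT ligands, was lower in anterior epithelium (-1.01, -1.30 to -0.73) but stood at 0.51 (0.17 to 0.86) in anterior mesenchyme. FST, LRP4, LEF1 and BMP2 were called in no genotype comparison. The paper reports that, SHH in epithelium apart, no conserved EDA target differed significantly between genotypes. It also reports no significant genotype difference for genes of the EDA pathway, EDAR and EDARADD included, from edgeR with 3 biological replicates. The paper holds that this bears out its in situ hybridization of embryonic teeth. That staining covered EDA, EDAR and NFKBIA in anterior dentary teeth of both genotypes. In WT it describes relatively high NFKBIA, particularly in anterior dentary and premaxillary teeth. The member differences given here describe group values without replicates and are not set against those results.

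In anterior mesenchyme, where TNFAIP3 had its largest genotype difference, leukocyte markers and immediate early genes differed too. Leukocyte markers (6 of 18 in the table, the other 12 not analysed here) summed to 242 CPM in Sca/+ anterior mesenchyme and 512 CPM in WT anterior mesenchyme, 157 CPM in Sca/+ and 159 CPM in WT posterior mesenchyme, 73.8 CPM in Sca/+ against 123 CPM in WT anterior epithelium, and 95.2 CPM in Sca/+ posterior epithelium. PTPRC, the general leukocyte marker, had 15.6 CPM in Sca/+ against 136 CPM in WT anterior mesenchyme, a difference of -3.13 (-4.11 to -2.29), which is also the value of TNFAIP3. PTPRC had the largest difference of the leukocyte markers kept in this comparison. CSF1R had 121 CPM in Sca/+ against 133 CPM in WT anterior mesenchyme, a difference of -0.13 (-0.51 to 0.23). CD74 had 48.1 CPM in Sca/+ against 63.5 CPM in WT there, a difference of -0.40 with an interval that includes 0. Neither CSF1R nor CD74 was called there. Of the 5 leukocyte markers kept, 3 (PTPRC, PTPN6 and DOCK2) were lower and 0 higher in Sca/+ anterior mesenchyme, 2 lower in anterior epithelium and 1 lower in posterior mesenchyme. Of all genes kept, 8.37%, 10% and 8.13% were lower in these comparisons. No gene at all in the table was at 0 in a usable column, so values above 0 do not set these markers apart. Immediate early genes, which respond within minutes to stimulation or to handling of tissue, were lower for 6 of 14 and higher for 2 in Sca/+ anterior mesenchyme. Of all genes kept, 8.37% were lower and 11.5% higher there. EGR1 had 61.1 CPM in Sca/+ against 429 CPM in WT and DUSP1 24.7 CPM in Sca/+ against 239 CPM in WT. The 2 higher genes were RHOB, at 194 CPM in Sca/+ against 39.0 CPM in WT, and JUND, at 27.3 CPM against 9.38 CPM. In anterior epithelium 3 were lower and 3 higher, with a sum of 2090 CPM in Sca/+ against 1640.0 CPM in WT, and in posterior mesenchyme 2 and 2. All genes kept were lower for 10% and 8.13% in these 2 tissues and higher for 12.2% and 8.82%. The part of leukocytes and of immediate early activation in the member differences was not tested.

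**Figure D5:**
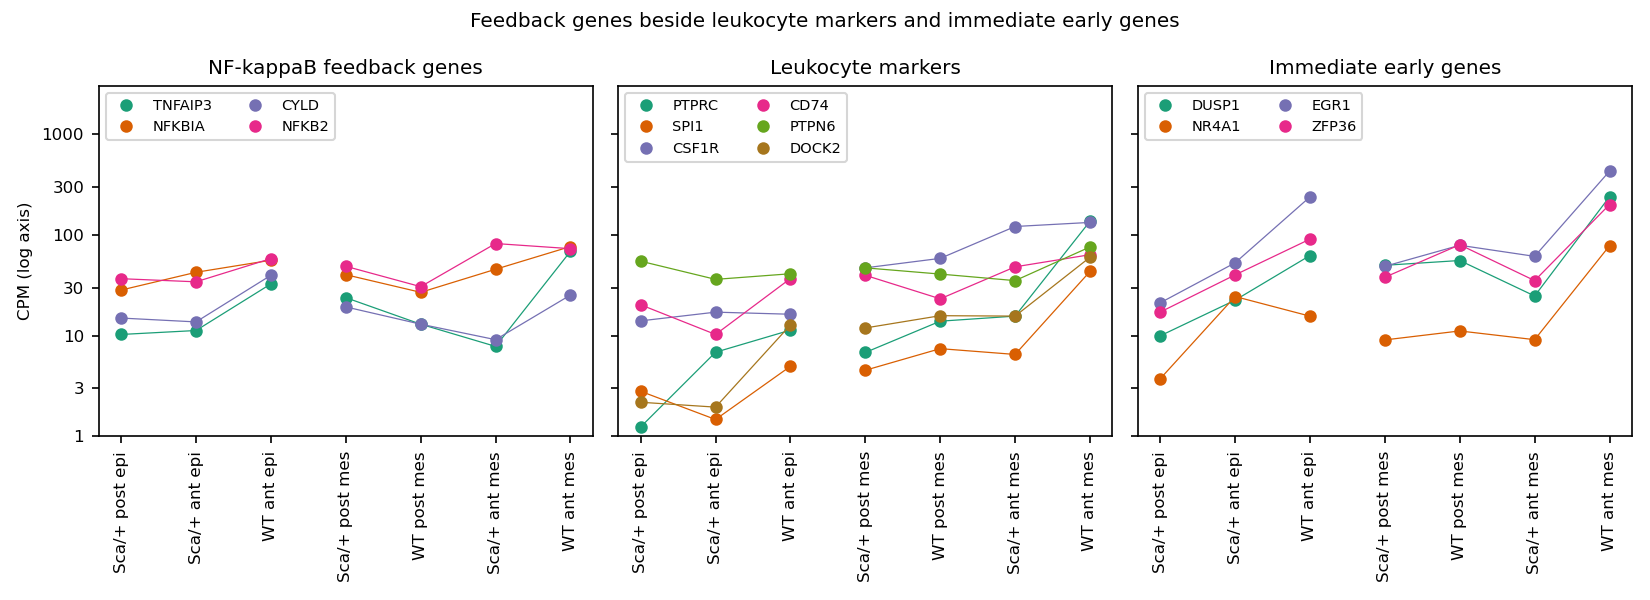
The plot sets the levels in CPM (log axis) of TNFAIP3, NFKBIA, CYLD and NFKB2 in the 7 usable groups beside the 6 leukocyte markers in the table and the 4 immediate early genes with the largest difference between genotypes in anterior mesenchyme, with lines joining the groups of a compartment to guide the eye. WT anterior mesenchyme holds the highest TNFAIP3 value (68.6 CPM) and also the highest PTPRC value (136 CPM) and EGR1 value (429 CPM).

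Across the 7 groups the members did not form 1 pattern. Of the 28 pairs of members 19 had a positive Pearson r over the log2 values, the highest being CYLD with TNFAIP3 at 0.83, NFKBIA with NFKB2 at 0.77 and NFKBIA with TNFAIP3 at 0.74. The ligand and TNFAIP3 ran opposite, at -0.53. By the methods the groups of a genotype share animals, the 7 columns differ in depth, and the values are given as a description. Among the 5107 or 5108 other named genes that averaged 5 log2 CPM or more, those most like TNFAIP3 over the 7 groups were C2CD5 (r of 0.97), ATP9B (0.97) and CALR (0.96), those most like TRAF3 included GUCY1B3 (0.98) and TRPM7 (0.97), and those most like CYLD were PIK3C2A (0.98), ZNF207 (0.96) and ZBED4 (0.96). EDARADD was most like SDAD1 (0.98), CSNK2A1 (0.98) and FAM96B (0.97), and EDA most like TBC1D9 (0.94), SMAD5 (0.94) and ACY1 (0.93). For NFKBIA the closest genes were SBNO2 (0.98), ETS2 (0.92) and the immediate early gene IER2 (0.92), for NFKB2 they were C1S (0.93), CP (0.91) and SOAT1 (0.91), and for TAB1 they were RARS (0.97), LBR (0.96) and TMEM251 (0.96). With 7 points, between 3 and 36 genes reached an r of 0.9 with a member, and nothing about shared control follows from it.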

How the data were processed

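RNA of laser-captured dental tissue was sequenced in 24 samples of 8 groups, 3 per group. By the labels and methods, the authors made rRNA-depleted Nugen Ovation SoLo libraries, used Trimmomatic for trimming and STAR for alignment and counting, and normalized counts with edgeR. Versions are not given in the sources used here, and the genome is given as a cited publication with no build name. The deposited values are log2 CPM, 1 column per group. Base 2 and the steps follow from the values. Values of single animals were not analysed here. The deposited WT posterior epithelium column is a fill series, not a measurement, and was left out.

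Values were converted to CPM and steps (1 step taken as 1 count), genes averaging 3 log2 CPM or more in the 7 columns were kept, and differences of at least 1 log2 unit were called. Columns were not rescaled for the main values. The interval of a difference between 2 differences is a normal approximation on log counts. Alternatives were columns rescaled to equal sums, centring on the median, a pseudocount of 2 CPM, calls at 0.58 log2 units or by an interval that excludes 0, no filter, and a filter at 5 log2 CPM. The scripts were tested on simulated data. The members and the 9 gene lists were chosen with earlier results of these data known. All members are named in each comparison (some compartment values as a range), with up to 4 genes of a list with the largest difference, pathway genes called in at least 2 of the 3 genotype comparisons, and the 3 genes most like each member. A gene that this rule selects is not reported here. Further list genes are named where their call is counted, and CSF1R and CD74 as leukocyte markers that were not called between genotypes in anterior mesenchyme. Of the symbols, 9891 matched RefSeq (PviZW2.1), whose coordinates were used only to find the genes that overlap a member. Software was scipy 1.17.1, pandas 2.3.3, numpy 2.4.6 and matplotlib 3.10.9 in Python 3.11.15.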

Additional observations from a re-analysis of the deposited data

Results flagged for a closer look

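In 7 cases the genotype difference (Sca/+ minus WT) of a member had opposite signs in 2 tissues and the difference between the 2 lay outside counting error. With no values of single animals these differences were not tested against the spread between animals. How many of all genes show such a case was not computed. Between anterior and posterior mesenchyme they were 2.58 log2 units for EDA (1.74 anterior, -0.84 posterior), -2.04 for CYLD (-1.47 and 0.57), -1.33 for NFKBIA (-0.75 and 0.58) and -4.01 for TNFAIP3 (-3.13 and 0.87). Between anterior epithelium and anterior mesenchyme they were -2.03 for EDA (-0.29 epithelium, 1.74 mesenchyme), 1.60 for EDARADD (0.94 and -0.66) and -0.93 for NFKB2 (-0.77 and 0.17). The columns of anterior mesenchyme enter both contrasts, and the 2 cases of EDA rest on the same 13 Sca/+ and 7 WT steps. For NFKB2 the small mesenchymal difference turned negative from rescaled columns.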

How the results depend on the processing

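Of the 72 member differences none moved beyond its counting interval when columns were rescaled (largest shift 0.26), centred on the median (0.06) or given a pseudocount of 2 CPM (0.62), and no called difference changed sign. The pseudocount ended the calls of EDA between WT positions and of TRAF3 and CYLD between Sca/+ positions, so that 3 in place of 5 members were called in Sca/+ mesenchyme. Rescaling subtracts 0.13, 0.23, 0.26, 0.10 and -0.12 from every difference, and so from the median of all genes, in anterior epithelium, anterior mesenchyme, WT position, Sca/+ epithelium and Sca/+ anterior compartments, and moved the share of calls that were higher between the positions of Sca/+ epithelium to 39.8%, against 51.2%. Under it the small differences of TAB1 and NFKB2 in anterior mesenchyme, of TRAF3 and NFKB2 between Sca/+ epithelial positions and of NFKBIA between Sca/+ anterior compartments changed sign. At 0.58 log2 units the members called between genotypes were 6 (in place of 3) in anterior epithelium, 6 (3) in anterior and 7 (2) in posterior mesenchyme, and 4 in place of 0 between Sca/+ epithelial positions and 5 in place of 3 between Sca/+ anterior compartments, where 33.9% and 47.1% of all genes were. By an interval that excludes 0, 6 were called in anterior epithelium (50.4% of all genes), 3 between Sca/+ epithelial positions (48.7%) and 4 between WT anterior compartments (43.3%). With a filter at 5 log2 CPM, which keeps NFKBIA and NFKB2 alone of the members, 828 of 5589 genes were called in anterior epithelium (2216 of 9987 as reported), 689 in anterior mesenchyme (1984), 484 in posterior mesenchyme (1693), 414 and 486 between Sca/+ positions in epithelium and mesenchyme (1368 and 1869), 546 between WT positions (1710), and 1054, 1055 and 858 between compartments at the Sca/+ posterior, the Sca/+ anterior and the WT anterior position (2575, 2575 and 2131). No paired analysis was possible because the columns hold group values and not animals, and for the same reason no replicate could be left out. Members under 10 steps in a group (EDA, EDARADD, TAB1, CYLD and TNFAIP3) have the widest intervals.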
